A study of Mus musculus with 8 samples.

Results

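The Mia gene family was followed across the 8 arrays of a study of embryonic mouse lung. Its members were all probe sets whose annotation names exactly 1 of the symbols Mia, Mia2 and Mia3. That rule uses no measured value, though it was chosen with earlier results of these data known. It gave 6 of 45037 probe sets on the array type used at E18.5 (embryonic day), with 1 for Mia, 1 for Mia2 and 4 for Mia3. It gave 2 of 12422 probe sets on the older array type used at E11.5, with 1 for Mia, 1 for Mia3 and 0 for Mia2. The E18.5 groups were lungs of FVB/N embryos, 3 described as single transgenic SP-C/MIA controls and 3 as double transgenic SP-C/MIA overexpressors, here called controls and bitransgenic lungs. The controls also carried a transgene, and the labels do not say which. The SP-C promoter is active in distal lung epithelium, so the transgenic RNA was mixed with that of all other lung cells on these arrays. At E11.5 there was 1 FVB/N lung array and 1 FVB/N trachea array. By the labels, the E18.5 arrays ask what excess MIA changes in the lung, and the E11.5 arrays set the early lung beside the trachea. Nothing in the labels says whether each array came from 1 embryo or a pool, so p-values measure only the spread between these samples, which may be technical.

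The family is named for MIA, melanoma inhibitory activity, a small secreted protein with an SH3-like fold that cartilage cells and melanoma cells release and that binds fibronectin and integrins outside the cell. MIA2 and MIA3 are larger. MIA3, better known as TANGO1, spans the membrane of the endoplasmic reticulum (ER) at exit sites, where it helps load collagens and other bulky cargo into carriers made by the COPII coat. MIA2 shares its gene with cTAGE5, the partner of TANGO1 at those sites, and its long form carries the SH3-like domain and is known from liver. A further relative, Otor (otoraplin), is known from the inner ear.

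The RefSeq start regions of the family are printed because RefSeq now joins the former genes Mia2 and Ctage5 under the symbol Mia2, with separate starts, while the array annotation still keeps them apart. RefSeq gave 5 start regions for the 3 genes, of which 4 are shown, each from 250 bases before to 50 bases after the start (build GRCm38.p6, written 5′ to 3′ on the strand of the gene). Capitals mark matches to 7 short motifs searched on both strands.
Mia, chr7:27181100-27181399, minus strand: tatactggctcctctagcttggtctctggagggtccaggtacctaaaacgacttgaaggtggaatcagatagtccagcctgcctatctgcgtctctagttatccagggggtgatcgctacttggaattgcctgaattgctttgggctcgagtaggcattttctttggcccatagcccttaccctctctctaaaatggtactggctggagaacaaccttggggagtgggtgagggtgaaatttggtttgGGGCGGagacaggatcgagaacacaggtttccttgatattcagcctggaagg
Mia2, start 1, chr12:59095341-59095640, plus strand: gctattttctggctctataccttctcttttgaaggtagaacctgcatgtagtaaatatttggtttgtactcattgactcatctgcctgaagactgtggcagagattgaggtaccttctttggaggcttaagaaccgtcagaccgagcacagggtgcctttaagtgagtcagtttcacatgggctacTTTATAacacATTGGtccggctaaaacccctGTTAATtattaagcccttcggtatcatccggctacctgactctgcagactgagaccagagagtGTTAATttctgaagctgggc
Mia2, start 3, chr12:59131231-59131530, plus strand: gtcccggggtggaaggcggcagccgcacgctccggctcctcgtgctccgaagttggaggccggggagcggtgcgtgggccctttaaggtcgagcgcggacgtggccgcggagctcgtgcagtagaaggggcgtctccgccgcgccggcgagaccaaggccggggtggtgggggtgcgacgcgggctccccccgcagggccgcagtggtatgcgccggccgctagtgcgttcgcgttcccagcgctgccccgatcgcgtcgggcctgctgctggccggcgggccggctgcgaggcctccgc
Mia3, chr1:183369516-183369815, minus strand: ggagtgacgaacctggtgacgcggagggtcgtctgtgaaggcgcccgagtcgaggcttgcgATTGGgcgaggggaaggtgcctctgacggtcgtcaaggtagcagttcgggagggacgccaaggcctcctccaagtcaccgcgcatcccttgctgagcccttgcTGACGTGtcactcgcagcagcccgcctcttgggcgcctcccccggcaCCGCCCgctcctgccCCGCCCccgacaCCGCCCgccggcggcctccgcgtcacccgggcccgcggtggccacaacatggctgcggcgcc
Mia2 start 3 and the Mia3 start were rich in G and C, at 76.3% and 72% of bases, against a median of 52.7% over 32851 RefSeq start regions of this length. Mia2 start 1 and the Mia start held 45% and 50.7%. Observed over expected CpG pairs were 1.04 at Mia2 start 3 and 0.903 at Mia3, but 0.329 at Mia2 start 1 and 0.32 at Mia.

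The HNF1 core GTTAAT, bound by factors of liver and gut, matched the Mia2 start 1 region at 2 places, and 7.1% of all start regions held a match. The core of the unfolded protein response element, TGACGTG, matched the Mia3 region, and 2.01% of start regions held one. Mia3 held 3 matches to the GC box GGGCGG and Mia held 1, with a match in 35.7% of start regions. The CCAAT box CCAAT was found at Mia2 start 1 and at Mia3, with a match in 37.4% of regions. The TATA box TATAAA was found on the opposite strand at Mia2 start 1, with a match in 13.6% of regions. The SOX core AACAAT and the NKX2-1 core CAAGTG had no match in the 4 regions shown, and 10.7% and 13.6% of all regions held them. No 2 of these matches overlapped. A match describes letters and is not evidence of binding, and the files do not say which Mia2 start either probe set reads.

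The 6 E18.5 arrays have, as deposited, the same trimmed mean of 1500, and their medians ran from 415 to 464. Lung epithelial genes were present on the E18.5 arrays, with 15 of 15 measured list members past the filter on low values. The ratio of 3′ to 5′ Actb signal, a sign of RNA quality, was 1.501, 1.465 and 1.285 in controls 1, 2 and 3 and 1.646, 1.506 and 1.615 in bitransgenic lungs 1, 2 and 3, so it was higher in the bitransgenic group, by little for its lowest array. The lung epithelial list was mixed: 8 of 15 members had positive and 7 negative log2 changes, with a median of 0.00. By limma 3 fell (Sftpa1, Slc34a2 and Abca3, surfactant and alveolar genes) and 0 rose. Foxa1, Foxa2 and Epcam, general epithelial genes, had values of 0.85, 0.29 and 0.63 but did not pass (limma adjusted p = 0.0659, 0.481 and 0.378). Sftpb, Sftpd and Napsa, surfactant and alveolar genes, had -1.99, -0.76 and -1.02 and did not pass either (limma adjusted p = 0.0692, 0.051 and 0.0558). The bitransgenic signals of the former lay above all controls and those of the latter below, as in 8.86% and 7.56% of genes tested. In the rest of the list the groups overlapped and no gene passed. There Sftpc, Etv5, Nkx2-1, Cdh1, Sox2 and Id2 had 0.00, 0.08, 0.12, 0.37, 0.22 and -0.39. The list's summed signal, to which the bright alveolar genes add most, was 302089 to 328267 in controls and 189736 to 232120 in bitransgenic lungs. Of markers of other lung cells, 0 of 7 mesenchymal and 0 of 6 endothelial genes tested passed by limma, with 1 and 4 at an unadjusted p under 0.05, and 1 of 4 blood genes fell. Their summed signals were also lower, controls given first. They were 100315 to 105346 against 77973 to 91945 for mesenchyme and 47982 to 62829 against 36403 to 40532 for endothelium. For blood they were 46581 to 68521 against 24675 to 29228. Lyz2, the blood gene that fell, gave most of the blood sum, at means of 41213 and 16752. The other blood genes tested did not pass. Alas2, Cd68 and Ptprc had log2 changes of -0.83, -0.15 and 0.16 (limma adjusted p = 0.102, 0.897 and 0.83). The part of these marker and Actb differences in the results below was not tested, except where a value with the Actb ratio in the model is given. In whole tissue, fewer cells of a type and less RNA per cell cannot be told apart.

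Mia rose in bitransgenic lungs, and no other member passed the test in either direction. Its signal was 1071, 1070.5 and 734 in controls 1, 2 and 3. In bitransgenic lungs 1, 2 and 3 it was 31399, 42666 and 41546. The groups lay far apart, and the lowest bitransgenic signal was 29.3 times the highest control signal. The means were 959 ± 194 (SD, n = 3) and 38537 ± 6207 (SD, n = 3), a ratio of 40.2. Within each group the spread was small beside that gap, with the highest array 1.46 times the lowest in controls and 1.36 times in bitransgenic lungs.

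The log2 change of Mia, on the scale of log2 of signal plus a pseudocount of 86.4, was 5.21 with an SE of 0.18 and a 95% interval from 4.81 to 5.62 (n = 3 per group, limma adjusted p = 1.54e-06). That interval corresponds to ratios from 28.0 to 49.1. Mia ranked 1 of 27022 probe sets tested, by size of rise and by p, and the next rise was that of Gstm5, a glutathione S-transferase gene, at 2.54. Of all probe sets tested, 0.444% passed in either direction and 0.163% as rises. With the Actb ratio in the model the change of Mia was 5.02 (limma adjusted p = 9.32e-05, n = 3 per group). Since the transgene encodes MIA, this rise is a check of the labels. The labels do not give the species or extent of the transgene, so the share of the bitransgenic signal that came from the mouse gene itself is unknown.

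**Figure D1:**
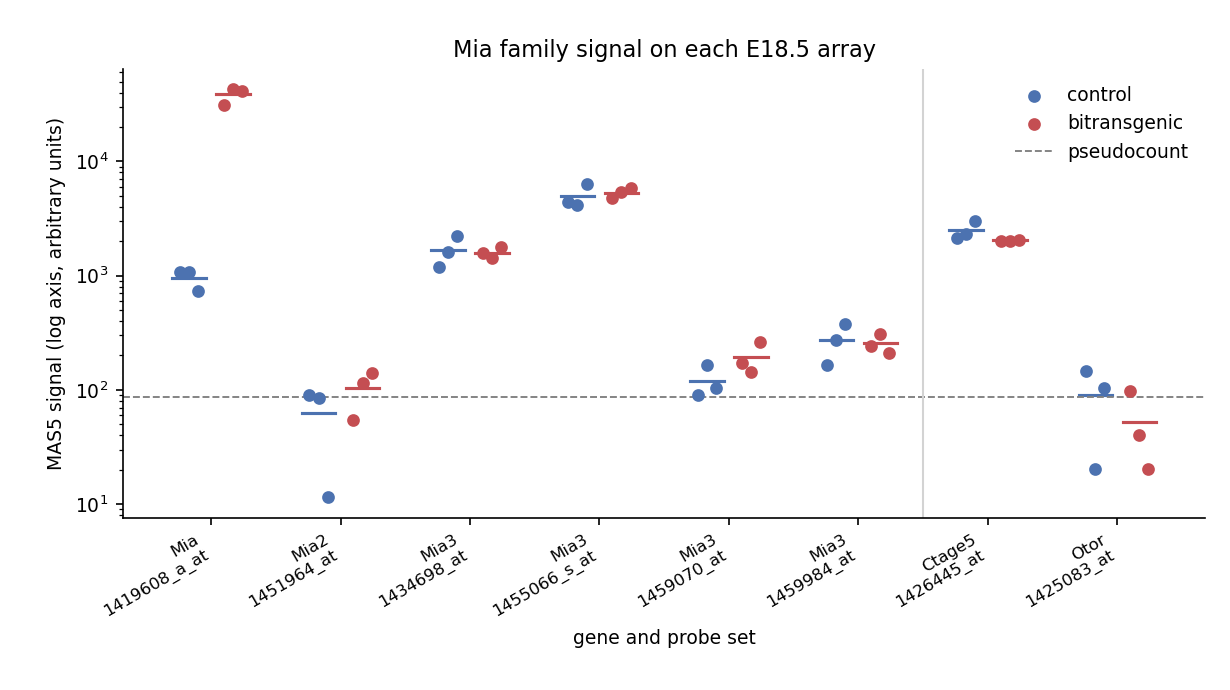
Signal of each Mia family probe set on the 6 E18.5 arrays (log axis), with 3 controls in blue, 3 bitransgenic lungs in red, bars at group means and the pseudocount of 86.4 as a dashed line. Members stand left of the grey line, Ctage5 and Otor right of it, and the groups of Mia are the only member groups that do not overlap.

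Sftpc, the gene whose promoter is in the labels, did not pass the test. Its brighter probe set read 81074, 84648 and 88408 in controls and 72239, 90433 and 93285 in bitransgenic lungs, and the groups overlapped. Its log2 change was 0.00, with a 95% interval from -0.27 to 0.27 (limma adjusted p = 0.998, n = 3 per group), and it took a negative sign under median centring and quantile normalization. For a dimmer Sftpc probe set the value was 0.29 (limma adjusted p = 0.741, n = 3 per group).

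The Mia2 probe set was near the floor of the arrays. It read 90.0, 85.2 and 11.52 in controls and 54.7, 115.1 and 141 in bitransgenic lungs. The groups overlapped, and 3 of the 6 signals were below the pseudocount. It did not pass the filter, which asked for a mean log2 value of 8.40, so no test was made. Its log2 difference of 0.38, bitransgenic minus control, is a value without a test.

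The probe set annotated to Ctage5, the other name that RefSeq gives to Mia2, is outside the rule but was well above the floor. It read 2141, 2335 and 3021 in controls and 2012, 2016.5 and 2063 in bitransgenic lungs. All bitransgenic signals were below all control signals, as for 7.3% of probe sets tested, while 9.29% did not overlap in the other direction and 16.6% in either. The log2 change was -0.27 (SE 0.16) with a 95% interval from -0.63 to 0.08, and it did not pass (limma adjusted p = 0.641, n = 3 per group). With the Actb ratio in the model it was -0.01 (limma adjusted p = 0.995, n = 3 per group), and without control 3 it was -0.13. Otor read 146, 20.4 and 104 in controls and 98.01, 39.9 and 20.4 in bitransgenic lungs, with 3 of 6 signals below the pseudocount and no test.

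Mia3 was read by 4 probe sets, and none passed the test. Those numbered 1434698_at and 1455066_s_at have the same source sequence in the array annotation, so they are not independent, and the suffix of the second marks probes that other transcripts can share. The brightest, 1455066_s_at, read 4408, 4128 and 6279 in controls and 4789, 5349 and 5804 in bitransgenic lungs. Its groups overlapped, because control 3 lay above every bitransgenic array. The means were 4938 ± 1169 (SD, n = 3) and 5314 ± 509 (SD, n = 3). The log2 change was 0.12 (SE 0.17) with a 95% interval from -0.27 to 0.51 (limma adjusted p = 0.871, n = 3 per group). That interval allows ratios from 0.832 to 1.43, so a change within those bounds remains compatible with these arrays.

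The second Mia3 probe set, 1434698_at, read 1198, 1626 and 2231 in controls and 1565, 1425 and 1784 in bitransgenic lungs. The bitransgenic signals all fell inside the control range. The log2 change was -0.04 with a 95% interval from -0.52 to 0.44 (limma adjusted p = 0.973, n = 3 per group). The third, 1459984_at, read 164, 274 and 374 in controls and 244, 311 and 212 in bitransgenic lungs, again all inside the control range. Its log2 change was -0.03 with a 95% interval from -0.63 to 0.58 (limma adjusted p = 0.988, n = 3 per group). The fourth, 1459070_at, read 90.5, 164 and 103 in controls and 172, 144 and 263 in bitransgenic lungs, overlapped, and did not pass the filter. In all, 4 of the 6 family probe sets passed the filter and 1 of those 4, Mia, passed the test.

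**Figure D2:**
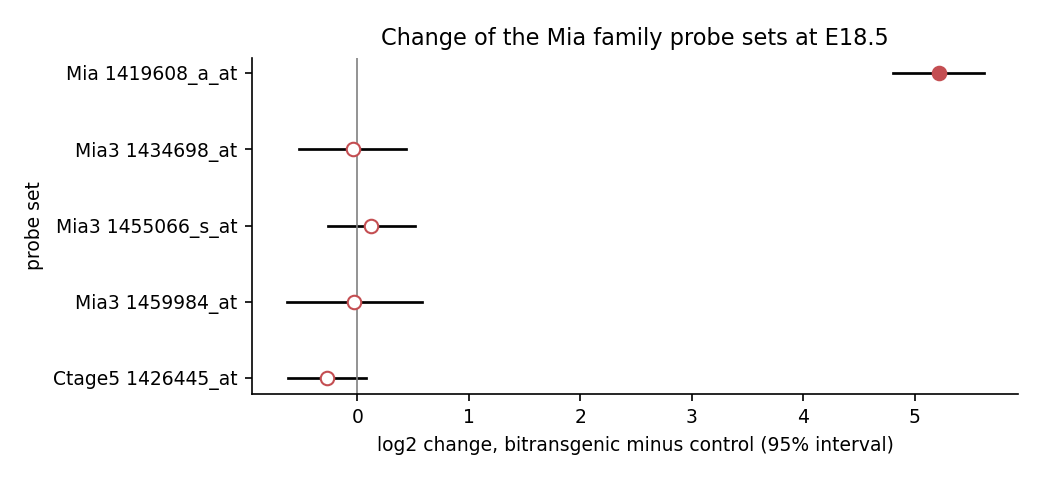
Log2 change, bitransgenic minus control, of the 4 family probe sets past the filter and of Ctage5, with 95% intervals from limma (3 arrays per group); a filled point passed the test. Mia lies at 5.21, and the intervals of the 3 Mia3 probe sets and of Ctage5 include 0.

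The control group was uneven for this family. Control 3 had the lowest Mia signal of the controls, at 0.686 times the mean of controls 1 and 2. It had the highest signal of the controls for 3 of the 4 Mia3 probe sets, at 1.47, 1.58 and 1.71 times that mean, and for Ctage5, at 1.35 times. Over all probe sets tested the median of this ratio was 1.04, and control 3 was the highest control for 46.5% and the lowest for 35.8%. Control 3 also had the lowest Actb ratio, 1.285. Without it, the log2 change of 1455066_s_at was 0.31 (limma adjusted p = 0.437, 2 controls and n = 3 bitransgenic) and that of 1434698_at was 0.17 (limma adjusted p = 0.782). With the Actb ratio in the model the changes of 1455066_s_at, 1434698_at and 1459984_at were 0.47, 0.32 and 0.49 (limma adjusted p = 0.817, 0.882 and 0.863). The sign of the last 2 Mia3 values thus turned with these settings, and none of the 3 passed.

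No listed gene of the route in which TANGO1 and cTAGE5 act passed the test, where 0.673% of 12625 genes tested passed, 0.238% as rises and 0.436% as falls. Over all genes the median log2 change was 0.01, and 1223 of the 12625 had an unadjusted p under 0.05 by limma. Of the COPII coat and its assembly factors, 17 of 19 listed genes were tested, 8 had positive and 9 negative log2 changes, and the median was -0.02. By limma 0 of the 17 passed, with 0 at an unadjusted p under 0.05, and the values ran from -0.19 to 0.28. Sec23a, the inner coat subunit that binds TANGO1 and cTAGE5, read 6525, 6075 and 3774 in controls and 6366, 5936 and 5445 in bitransgenic lungs. Control 3 was again apart, this time low, and the groups overlapped. The log2 change of Sec23a was 0.15 (95% interval -0.30 to 0.60, limma adjusted p = 0.875, n = 3 per group), and it was -0.09 without control 3 and -0.30 with the Actb ratio in the model. Sar1b, the GTPase that starts the coat and is needed for chylomicron export, had -0.14 (limma adjusted p = 0.826), and Klhl12, an adaptor that enlarges COPII carriers, had 0.28 (limma adjusted p = 0.615). Sar1b was -0.016 without bitransgenic 3 and -0.21 without bitransgenic 2, and with the Actb ratio in the model Sar1b and Klhl12 had -0.049 and 0.099.

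ER to Golgi tethers, SNAREs and cargo receptors gave a similar picture. Of 21 listed genes 20 were tested, 7 positive and 13 negative, with a median of -0.04. By limma 0 of the 20 passed, with 0 at an unadjusted p under 0.05. Mcfd2, which works with Lman1 to export clotting factors, had a value of -0.20 (limma adjusted p = 0.65). Its bitransgenic signals all lay below the controls, as in 7.56% of genes tested (8.86% lay the other way, 16.4% either way). Ykt6, a SNARE, had -0.26 (limma adjusted p = 0.67), which was -0.14 without control 3, -0.41 without control 1 and -0.018 with the Actb ratio in the model.

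Large cargo and its ER chaperones had a median log2 change of -0.03 over 19 tested of 22 listed genes. By limma 0 of the 19 passed, with 2 at an unadjusted p under 0.05, which 1223 of all 12625 genes tested also had. Those were Col4a2, a basement membrane collagen chain, at -0.34 (95% interval -0.58 to -0.10, limma adjusted p = 0.314), and Mttp, the lipid transfer protein of lipoprotein assembly, at 0.45 (95% interval 0.04 to 0.87, limma adjusted p = 0.47). With the Actb ratio in the model Col4a2 had -0.18, and by the mean of its probe sets Mttp had 0.19. The list's median turned to 0.12 without control 3 and to 0.20 with the Actb ratio in the model. Of 20 genes of ER folding and the unfolded protein response, 6 were positive and 14 negative, with a median of -0.09. By limma 0 of the 20 passed, with 1 at an unadjusted p under 0.05. That gene, Sdf2l1, an ER chaperone cofactor, read 421, 428 and 530.2 in controls and 301, 317 and 313 in bitransgenic lungs. Its bitransgenic signals all lay below the controls, as in 7.56% of genes tested (8.86% lay the other way, 16.4% either way). The log2 change of Sdf2l1 was -0.46 (limma adjusted p = 0.485). Dnajb9, another ER cochaperone, had -0.45 (limma adjusted p = 0.598), which was -0.20 without bitransgenic 3 and -0.67 with the Actb ratio in the model. The latter fit gave Sdf2l1 a value of -0.28.

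Described binding partners of MIA outside the cell did not pass either. Of 11 listed genes 8 were tested, all 8 with negative log2 changes and a median of -0.12, where 47.4% of all genes tested were negative and the summed mesenchymal and endothelial markers were lower too, whose part in this was not tested. By limma 0 of the 8 passed, with 2 at an unadjusted p under 0.05, against 1223 of all 12625 genes tested. Itga4, an integrin subunit, read 2414, 2226 and 3639 in controls and 1907, 1673 and 2075 in bitransgenic lungs. Tnc, the matrix glycoprotein tenascin C, read 3129, 2987 and 3887 in controls and 2500.1, 2774 and 2336 in bitransgenic lungs. In both genes all bitransgenic signals lay below all controls, as in 7.56% of genes tested (8.86% lay the other way, 16.4% either way), and control 3 was the highest array. Their log2 changes were -0.50 (limma adjusted p = 0.427) and -0.38 (limma adjusted p = 0.446), and -0.20 and -0.12 with the Actb ratio in the model. Without control 3, Itga4 had -0.29.

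Markers of the cells that MIA is best known from did not pass the test. Of 15 cartilage genes 6 passed the filter, 1 with a positive and 5 with a negative log2 change and a median of -0.10, and by limma 0 passed the test, with 0 at an unadjusted p under 0.05. The summed signal of the list was 4886 to 5132 in controls and 4039 to 5221 in bitransgenic lungs. Col2a1, the main cartilage collagen, did not pass the filter, at 145 ± 122 (SD, n = 3) and 60.2 ± 25.9 (SD, n = 3). Hapln1, a link protein of cartilage matrix, had a value of -0.33 (limma adjusted p = 0.619), and Sox9, the regulator of cartilage fate that lung epithelium also expresses, had -0.27 (limma adjusted p = 0.747). Of 12 melanocyte genes 8 passed the filter, all 8 with negative log2 changes and a median of -0.27, where 47.4% of all genes tested were negative. The summed mesenchymal and endothelial markers were lower too, and their part in this was not tested. By limma 0 passed the test, with 1 at an unadjusted p under 0.05, against 1223 of all 12625 genes tested. That was Kit, a receptor that mast cells and progenitors also express, at -0.69 (limma adjusted p = 0.113), and Sox10 had -0.47 (limma adjusted p = 0.543). Without control 3 Sox10 had -0.31, and without control 2 Sox9 had -0.12. Tyr, Tyrp1 and Mlana, which define pigment cells, did not pass the filter. The summed signal of the melanocyte list was 28301 to 30740.3 in controls and 23063 to 28402 in bitransgenic lungs. Ednrb, Mitf and Kit gave most of that sum, with control means of 16815, 5678 and 4230.

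**Figure D3:**
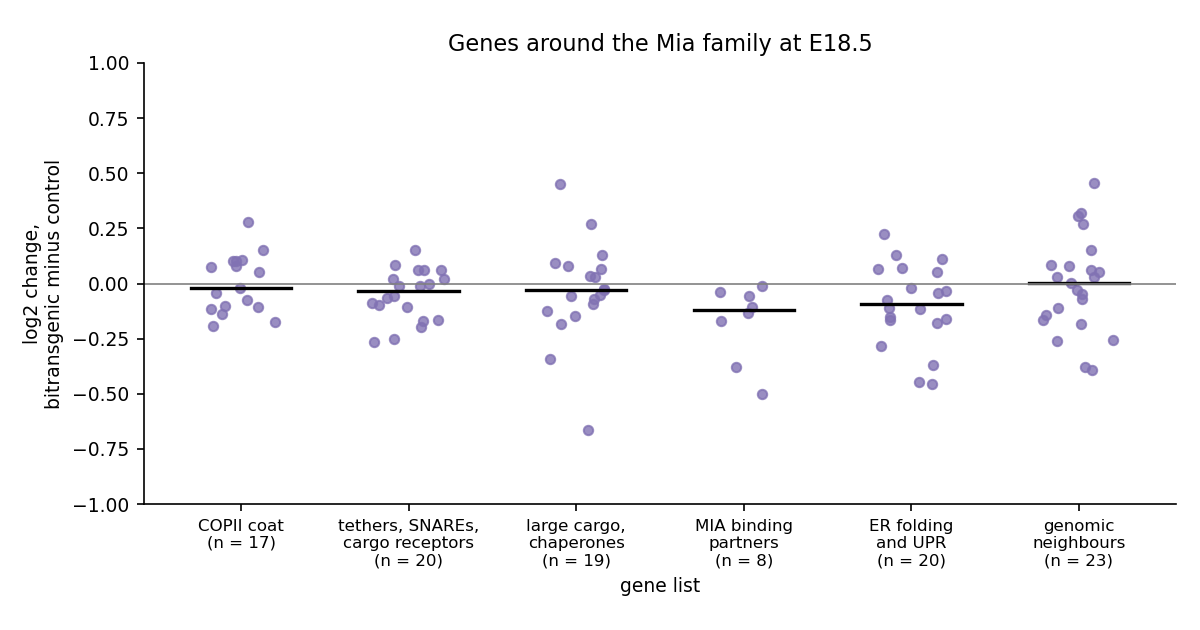
Log2 change, bitransgenic minus control, of each gene past the filter in the 5 lists around the family and among genomic neighbours, 1 point per gene with bars at medians. Points spread on both sides of 0 except for the 8 MIA binding partners, none of the genes shown passed the test, and Mia at 5.21 is far outside the plotted range.

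No gene beside the family on the chromosome passed the test. By the gene order of RefSeq (GRCm38.p6), the 5 nearest measured genes on each side of Mia, Mia2 and Mia3 gave 30 neighbours. Of these 23 passed the filter and 0 passed the test by limma. An unadjusted p under 0.05 was reached by 3 of the 23, and by 1223 of all 12625 genes tested. The 8 tested neighbours of Mia had a median log2 change of -0.08 and ran from -0.39 to 0.46. The upper end was Egln2, an oxygen-sensing prolyl hydroxylase that lies second from Mia, named here after its values were seen, at 6397 ± 188 (SD, n = 3) and 8810.3 ± 452 (SD, n = 3) with a 95% interval of the log2 change from 0.20 to 0.71 (limma adjusted p = 0.164). Egln2 was positive under all 17 alternatives and passed with array weights (0.43, limma adjusted p = 0.00408), which did not reach their convergence tolerance. The 8 tested neighbours of Mia2, Sec23a among them, had a median of 0.07, and the 7 of Mia3 had -0.03.

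The pattern of each member over the 6 arrays, after each group's mean was subtracted, was set against 12624 genes for Mia and Mia3 and 12625 for Mia2. The genes most like Mia were Naa25, Met and Rnf225, with Pearson r of 0.996, 0.993 and 0.991. For Mia2, whose signals lie near the floor, they were Bmi1, Adck1 and Prnp, with r of 0.995, 0.994 and 0.990. For Mia3, by its brightest probe set, they were Colgalt1, Prm1 and Spag8, with r of 0.998, 0.998 and 0.998. With only 6 arrays a high r is easily reached: 146, 186 and 876 genes had an r above 0.9 with Mia, Mia2 and Mia3.

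At E11.5, in tissue with no transgene in its labels, Mia was high in lung and at the floor in trachea. The lung array gave 1048 and the trachea array 81.4, which is under the pseudocount of 84.3. With the trachea signal raised to the pseudocount, the ratio of lung to trachea was 12.4. With the pseudocount added to both signals, the log2 ratio was 2.77. Among probe sets compared, 3.51% were over 2-fold apart 1.31% towards lung and 2.19% towards trachea. No test was possible with 1 array of each tissue, and the size rests on the pseudocount, since it was 3.38 with 0.25 times and 1.73 with 4 times that value.

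Mia3 was close to level between the E11.5 tissues. It read 1218 in lung and 1028 in trachea, a log2 ratio of 0.23. Ctage5 read 2416 in lung and 2898 in trachea, a log2 ratio of -0.25. Neither reached the 2-fold mark, and no error can be given. Sftpc was 1503 in lung and 257 in trachea, and Sox2, a transcription factor of proximal airway, was 1016 in lung and 4260 in trachea.

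**Figure D4:**
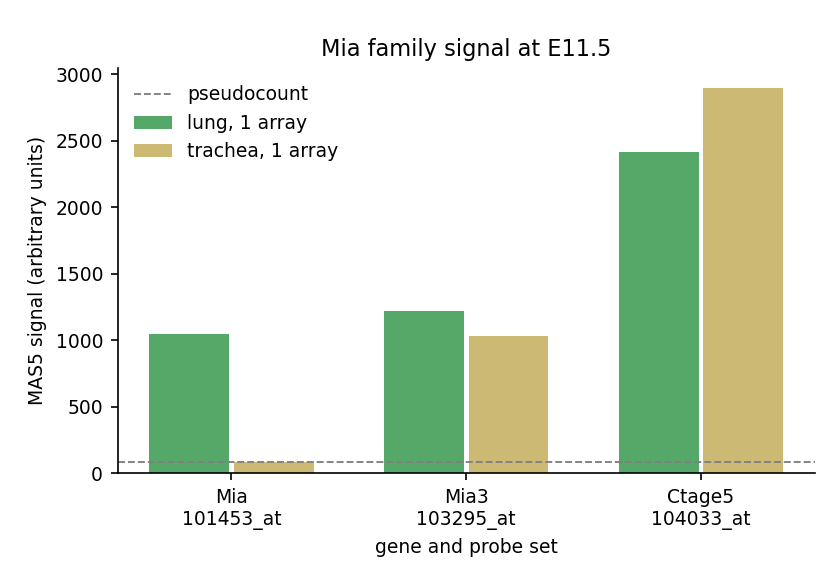
Signal of Mia, Mia3 and Ctage5 on the single E11.5 lung array (green) and the single trachea array (yellow), linear axis from 0, with the pseudocount of 84.3 as a dashed line. Mia reads 1048 in lung and 81.4 in trachea, while Mia3 and Ctage5 differ by less than 2-fold.

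Of 11 COPII genes and 16 tether and SNARE genes compared at E11.5, 0 were over 2-fold apart, with medians of -0.10 and -0.05 on the log2 scale, lung minus trachea. The median over all 5114 genes compared was -0.01, and 3.42% were over 2-fold apart, with 1.17% higher in lung and 2.25% higher in trachea. The 15 genes of large cargo and its chaperones had a median of -0.35, with 0 over 2-fold apart, and the 15 of ER folding had 0.16, also with 0. Among 8 MIA partners Lamc1, a laminin chain, was over 2-fold higher in lung, at 3490 against 1634. Itga4 and Tnc were over 2-fold higher in trachea, at 1501 against 397 and 2724 against 253. Of 12 cartilage genes measured 4 were bright enough to compare, and all 4 lay on the trachea side, as did 2595 of all 5114 genes, with Col11a1 at 471 in lung and 2206 in trachea and Col9a3 at 775 and 2280.2. Among the 8 dimmer ones Hapln1, Sox5 and Sox6 lay on the lung side, at 296 against 19.7, 219 against 126 and 427 against 362. Col11a2 lay on the trachea side, at 72.4 in lung and 233 in trachea. Acan, Matn1, Matn3 and Col2a1 lay slightly on the lung side but under the pseudocount in both tissues, with Col2a1 at 62.7 and 48.2.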

How the data were processed

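RNA from E18.5 lung (6 arrays) and from E11.5 lung and trachea (1 array each) was measured on Affymetrix 1-colour arrays. The deposited values are signal intensities on a linear scale, made by the authors with MAS5 per the submitters' processing notes, with no version stated. Detection calls were not used here. Control probe sets (64 and 66) were left out, and 34945 and 10833 probe sets had 1 symbol. Values were analysed as log2 of signal plus the 20th percentile of each table (86.4 and 84.3). Since the pseudocount compresses differences of dim probe sets, a filter kept probe sets with a mean at or above the 40th percentile. Control and bitransgenic arrays were compared with limma 3.58.1 (R 4.3.3; lmFit, eBayes with trend, two-sided), adjusted by Benjamini-Hochberg over all features tested, at a threshold of 0.05. Members were fitted among all probe sets, and other genes by the brightest of their probe sets. Exact permutation of 3 against 3 cannot reach that threshold. At E11.5 a feature past the filter whose higher signal was above the table median was compared, and counted when over 2-fold apart, with no test. The number of arrays limits precision.

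The members, lists and rules were chosen with earlier results of these data known. Named were all members, Otor, Ctage5 and Sftpc, Sec23a and Sar1b, up to 4 members of a list that passed (otherwise up to 2 with the smallest p), and the 3 genes most like each member. Genes named at E11.5, and the E18.5 lung epithelial and blood genes named that did not pass, were chosen after their values were seen. Gene symbols came from the array annotation, updated by gene ID to RefSeq. The tests were tested on simulated data. Alternatives changed the centring, normalization, pseudocount, filter, variance model, array weights, Actb ratio as a covariate, features tested and each replicate left out. Figures were drawn with matplotlib 3.10.9.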

Additional observations from a re-analysis of the deposited data

How the results depend on the processing

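Mia kept its direction and passed under all 18 alternatives, with log2 changes from 4.90 to 5.35 and limma adjusted p from 1.28e-09 to 9.32e-05, and it was the 1 family probe set called in each. Mia3 1455066_s_at stayed positive and uncalled in all 18, from 0.01 to 0.47. Mia3 1434698_at turned positive with the Actb ratio in the model (0.32) and without control 3 and bitransgenic 3 (0.09), and ran from -0.25 to 0.17 with 1 replicate left out. Mia3 1459984_at turned to 0.031 with array weights, 0.49 with the Actb ratio and 0.27 without that pair, and ran from -0.26 to 0.18 with 1 replicate left out. Sftpc took -0.017 under median centring, -0.013 under quantile normalization, -0.019 with array weights and -0.035 without the pair, and ran from -0.067 to 0.12 with 1 left out, and its dimmer probe set passed with array weights (0.53, limma adjusted p = 0.0306). Sec23a turned to -0.30 with the Actb ratio and -0.034 without the pair, and ran from -0.092 to 0.30. The cause of these turns was not tested.

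Over all probe sets 120 passed, against 63 with no filter, 54 without the intensity trend, 3034 with array weights, 20 with the Actb ratio, 239 without the pair, and 31 to 103 with 1 replicate left out (31 without control 2, 33, 47 and 44 without bitransgenic 1, 2 and 3). Over genes 85 passed, against 1339, 20 and 187 in the last settings and 22 to 97 with 1 left out. The array weights did not reach their convergence tolerance. With them alone, 1 COPII gene, 1 cargo gene, 1 ER folding gene, 1 cartilage gene, 3 melanocyte genes and 1 genomic neighbour passed. At E11.5 the log2 ratio of Mia was 2.78 under median centring and under quantile normalization, 3.38 with 0.25 times the pseudocount and 1.73 with 4 times. That of Mia3 was 0.24, 0.25, 0.24 and 0.19. The covariate and pair settings rest on fewer residual degrees of freedom, and the loss of control 3 and bitransgenic 3 was chosen after seeing the data. No paired analysis was possible because the labels give no number shared by a control and a bitransgenic array. Signals near the pseudocount limit what Mia2 and Otor can show.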
